A study of Homo sapiens with 18 samples.

Results

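Integrins are the cell-surface receptors through which cells hold on to the extracellular matrix, and 10 of their subunit genes were followed here through 3 pairs of platinum-sensitive and platinum-resistant ovarian cancer cell lines. The genes were taken from the expression table by their HGNC symbols, 5 alpha subunits (ITGA2, ITGA3, ITGA5, ITGA6 and ITGAV) and 5 beta subunits (ITGB1, ITGB3, ITGB4, ITGB5 and ITGB8), which are 10 of the 12853 genes listed. Total RNA depleted of ribosomal RNA was sequenced with 3 libraries per line, 18 in all. A2780, an ovarian cancer line sensitive to platinum, was set against CP70, a resistant derivative selected from it in culture. The other pairs are each from 1 patient with high-grade serous ovarian cancer, and their first line differs in exposure. PEA1 was taken from ascites before any platinum and PEA2, also from ascites, at a resistant relapse, whereas PEO1 and PEO4 were both derived after platinum chemotherapy, PEO1 before clinical resistance and PEO4 after it. All 6 lines were grown in RPMI-1640 with 10% fetal bovine serum, none was labelled as given drug before harvest, and each pair holds a single resistant line, so a difference within a pair is a difference between 2 lines. The labels do not say whether the 3 libraries of a line came from separate cultures, so p-values measure the spread between these libraries, which may be technical.

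Each integrin is a heterodimer of an alpha and a beta subunit, which leave the endoplasmic reticulum only once they have paired. ITGB1 is the shared partner of ITGA2, which binds collagen, of ITGA3 and ITGA6, which bind laminin, and of ITGA5, which binds fibronectin. ITGB4 pairs with ITGA6 alone and anchors epithelial cells to laminin through hemidesmosomes, while ITGAV pairs with ITGB1, ITGB3, ITGB5 or ITGB8 in receptors for ligands that carry the RGD motif, such as vitronectin and fibronectin, and the receptor with ITGB8 binds and activates latent TGF-beta.

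Values are given as log2 CPM (counts scaled to a common library total, with 0.5 reads added by the authors) or as reads recovered from those values. The reads on listed genes ran from 1344098 in a PEA1 library to 7067336 in a PEO1 library, and 3 reads, the most that a count of 0 allows, correspond to 0.452 to 2.18 CPM. A change was called at a false discovery rate (FDR) below 0.05 over all 12853 genes, and a second, stricter rule also asked for an absolute log2 fold change (log2FC) above 2. In bulk RNA, fewer cells carrying a transcript and less of it in each cell cannot be told apart.

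The labelled origin was checked against 9 epithelial and ovarian markers (EPCAM, KRT7, KRT8, KRT18, KRT19, CDH1, PAX8, WT1 and MUC16). All 9 were above 3 reads in every library of PEA2, PEO1 and PEO4, but 5 in PEA1, 3 in CP70 and 0 in A2780, where 4 had no reads and their summed level was 2.24 to 3.13 CPM against 90.5 to 96.2 CPM in CP70. The sum was 430 to 588 CPM in PEA1, 4152 to 4412 CPM in PEA2, 7498 to 8508 CPM in PEO1 and 5883 to 7560 CPM in PEO4. Most defining epithelial markers were therefore missing from A2780, and the largest step within a pair of patient lines fell between PEA1 and PEA2, with CDH1, which encodes E-cadherin, at 0 to 4 reads in PEA1 and 1416 to 2187 reads in PEA2. Markers of other cell types moved in the same pair, since PTPRC, the leukocyte antigen CD45, had 0 reads in each PEA1 library and 46 to 70 in PEA2, and CDH5, the cadherin of endothelium, 0 and 66 to 88. The summed level of the 2 leukocyte markers in the table (PTPRC and LCP1) was 7.48 to 9.44 CPM in PEA1 and 338 to 426 CPM in PEA2, and that of the 1 endothelial marker was 0 in PEA1 and 25.3 to 36.1 CPM in PEA2. The 4 fibroblast markers in the table (DCN, LUM, ACTA2 and THY1, without PDGFRA and PDGFRB) summed to 65.5 to 77.8 CPM in A2780 and 93.6 to 98.5 CPM in CP70. In A2780 this was mostly ACTA2, at 138 to 248 reads, with at most 14 reads for each other marker. Their sum was 152 to 170 CPM in PEO1 and 150 to 159 CPM in PEO4. Most of it was THY1, at 463 to 1093 and 373 to 467 reads, while DCN and LUM had 0 or 1 read. In the PEA pair the sum was lower, at 1.43 to 2.91 CPM in PEA1 and 3.20 to 5.49 CPM in PEA2. The part of these differences in the integrin values of the PEA pair was not tested.

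The subunits called in each pair are counted first, beside the share of all genes called by the same test. In CP70, 8 of the 10 were higher than in A2780 and 0 were lower, where 22.2% of all genes were higher and 17.7% lower (39.9% in all). By limma at an unadjusted p under 0.05 the counts were also 8 and 0, and with voom weights 7 and 0. PEA2 differed from PEA1 in 8, with 5 higher and 3 lower, against 61.9% of all genes (32.5% higher and 29.4% lower). PEO4 differed from PEO1 in 5, with 4 higher and 1 lower, against 41.5% of all genes (19.6% higher and 21.9% lower), and in 7 with voom weights, with the pair fitted alone or with 2 reads added. These counts were not tested against the shares of all genes or between pairs. The 8 of 10 in the A2780 pair, 8 of 10 in the PEA pair and 5 of 10 in the PEO pair are read as descriptions. Of the subunits called in CP70, ITGA2, ITGB4 and ITGB8 had 3 reads or fewer in each A2780 library. The calls of ITGA3 and ITGB1 there were lost in some of the alternatives. The stricter rule was met by ITGA2 and ITGB4 in CP70 (2 of 10, against 9.06% of all genes) and by ITGA2, ITGB3, ITGB4 and ITGB8 in PEA2 (4 of 10, against 14.1%). In PEO4 it was met by 0 subunits, against 6.22% of all genes, by limma and likewise by voom. At an unadjusted p under 0.05, 6 subunits passed in that pair, 0 of them with an absolute log2FC above 2. The shares of all genes are those of the main fit at the FDR or at both thresholds. None is given for unadjusted p-values or for the alternative settings, so those counts cannot be set against all genes. The median log2FC of the 10 was 1.31 for CP70, 0.46 for PEA2 and 0.23 for PEO4, beside medians of -0.02, 0.01 and -0.02 over all genes. ITGA2 was called higher in the resistant line of every pair. ITGB4 was so too with the pair fitted alone, with voom weights, with 2 reads added or without A2780 replicate 2, but not in the fit over all lines.

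**Figure D1:**
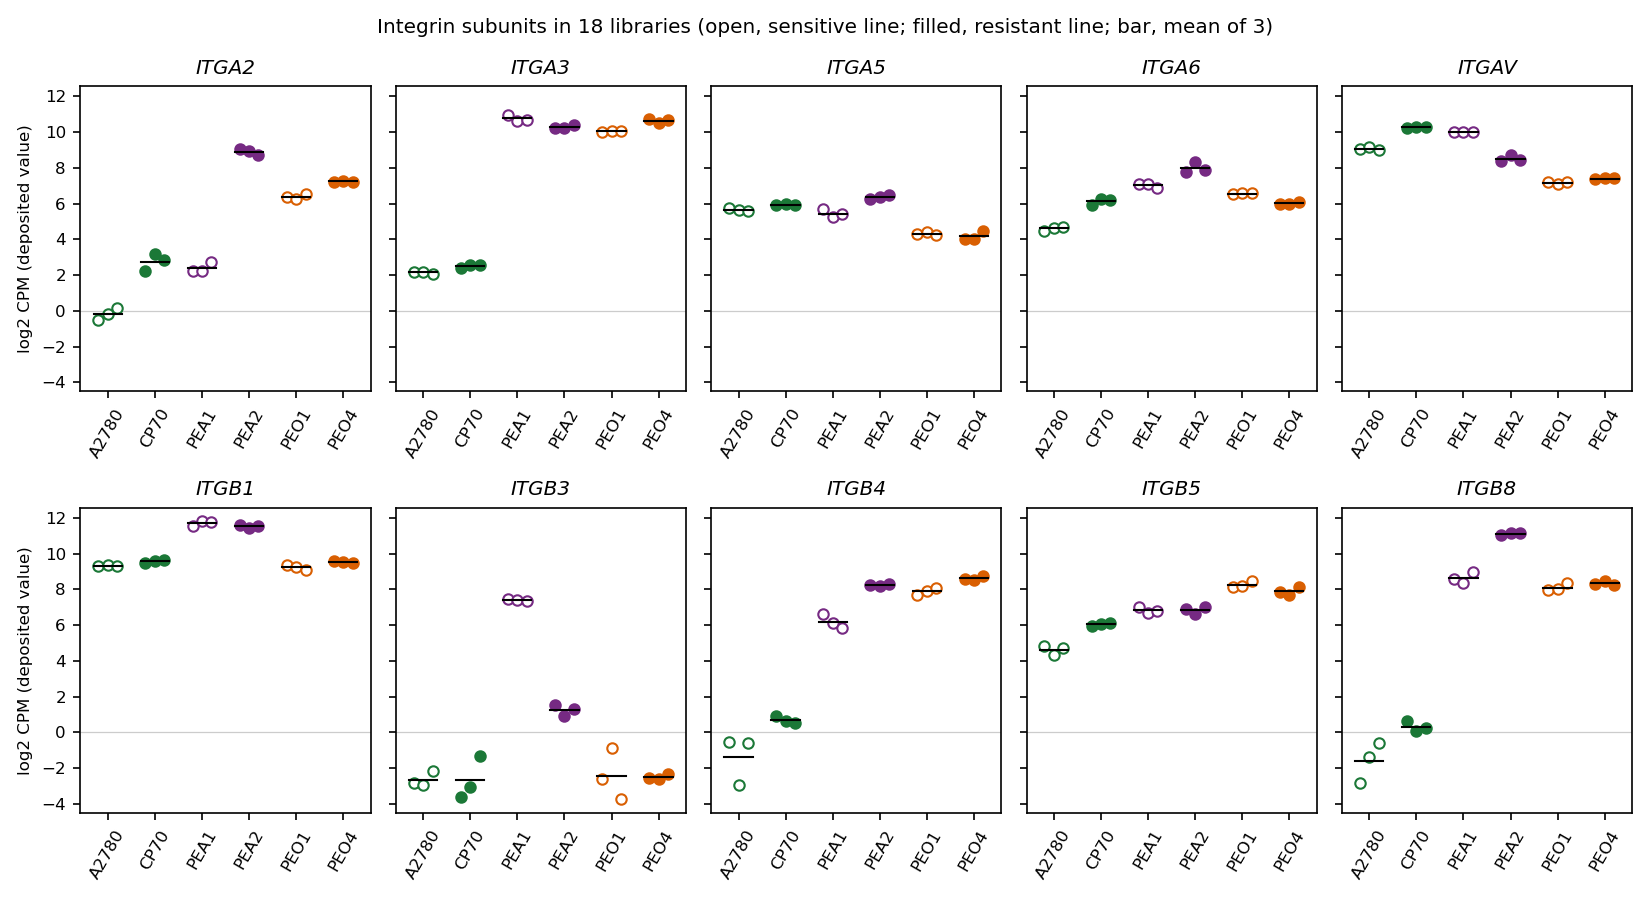
Level of each integrin subunit in the 18 libraries, as log2 CPM on the vertical axis, with 1 panel per gene and the 6 lines along the horizontal axis. Open points are libraries of sensitive lines, filled points libraries of resistant lines, and bars the line means. ITGA3, ITGB4 and ITGB8 sit far lower in A2780 and CP70 than in the 4 patient lines, and ITGB3 stands above 7 in PEA1 alone.

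ITGA2, the collagen-binding alpha subunit (chromosome 5, 52285170 to 52390609, plus strand), gave the largest increase of the set. PEA1 libraries had 6, 6 and 11 reads of it, and PEA2 libraries 1001, 1708 and 922. On the log2 CPM scale these were 2.24, 2.21 and 2.73 in PEA1 and 9.06, 8.94 and 8.72 in PEA2, so every PEA2 library lay far above every PEA1 library. The log2FC was 6.52 (SE 0.22, limma FDR = 9.54e-15, n = 3 libraries per line), and with so few reads in PEA1 the ratio of summed reads, scaled to the depth of the lines, had an exact 95% counting interval of 63.0 to 150 around 94.7. A2780 had 2, 3 and 2 reads and CP70 28, 38 and 27, a depth-scaled ratio of 9.11 (interval 4.25 to 23.3), with a log2FC of 2.92 (SE 0.22, limma FDR = 1.34e-09) that was 1.56 after quantile normalization. These intervals cover counting error only. The step in the PEO pair was smaller, from 6.35, 6.28 and 6.54 in PEO1 to 7.22, 7.30 and 7.24 in PEO4 on the log2 CPM scale. The log2FC there was 0.86 (SE 0.22, limma FDR = 0.00408), and in each of the 3 pairs the libraries of the sensitive and resistant line did not overlap. From lowest to highest the line means ran A2780, PEA1, CP70, PEO1, PEO4 and PEA2, and only PEA1 and CP70, at 2.39 ± 0.29 and 2.76 ± 0.49 (SD, n = 3), were not shown to differ as neighbours (limma FDR = 0.153).

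ITGA3, the alpha subunit of a laminin receptor with ITGB1 (chromosome 17, 48133332 to 48167845, plus strand), differed far more between A2780 or CP70 and the patient lines than within any pair. The line means were 2.16 ± 0.06 in A2780 and 2.52 ± 0.10 in CP70, against 10.77 ± 0.16 in PEA1, 10.30 ± 0.10 in PEA2, 10.05 ± 0.04 in PEO1 and 10.64 ± 0.11 in PEO4 (log2 CPM, SD, n = 3). A2780 and CP70 had 9 to 32 reads per library where the patient lines had 2259 to 7144. PEA1 libraries stood at 10.95, 10.65 and 10.71 and PEA2 libraries at 10.25, 10.24 and 10.42, and PEO1 libraries stood at 10.01, 10.06 and 10.07 and PEO4 libraries at 10.72, 10.51 and 10.70. ITGA3 thus fell by 0.47 in PEA2 (SE 0.09, limma FDR = 0.000183) and rose by 0.60 in PEO4 (SE 0.09, FDR = 2.49e-05) on the log2 scale, with no overlap between libraries in either pair. The rise of 0.37 in CP70 (FDR = 0.00295) was not called with the pair fitted alone, with voom weights or after quantile normalization, which left a log2FC of 0.03 (FDR from 0.00156 to 0.814 over the alternatives). ITGA3 was the most variable alpha subunit after ITGA2, with line means that spanned 8.61.

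ITGA6 encodes the alpha subunit shared by the laminin receptors with ITGB1 and ITGB4 (chromosome 2, 173292082 to 173371187, plus strand). A2780 libraries stood at 4.48, 4.67 and 4.71 and CP70 libraries at 5.95, 6.25 and 6.22 log2 CPM. PEA1 libraries stood at 7.10, 7.08 and 6.90 and PEA2 libraries at 7.77, 8.32 and 7.89. In both pairs each library of the resistant line was above each of the sensitive line, with log2FC of 1.52 (SE 0.13, limma FDR = 4.18e-09) and 0.97 (SE 0.13, FDR = 1.47e-06). The opposite held between PEO1, at 6.54, 6.59 and 6.59, and PEO4, at 5.96, 5.97 and 6.12. ITGA6 fell by 0.55 there (SE 0.13, limma FDR = 0.00138) and was the only subunit called lower in PEO4. PEO4 and CP70 were not shown to differ as neighbours (limma FDR above 0.05), and the other neighbours in its order of levels did.

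ITGB4, the beta subunit of hemidesmosomes (chromosome 17, 73717408 to 73753899, plus strand), was nearly unread in A2780 and abundant in the patient lines. A2780 libraries had 2, 0 and 1 reads and CP70 libraries 11, 6 and 5. The depth-scaled ratio of summed reads was 5.03 with an exact 95% counting interval of 1.51 to 26.2, and the fitted log2FC of 2.04 (SE 0.40, limma FDR = 0.000378) was 1.09 with 2 reads added in place of 0.5 and 1.31 after quantile normalization. It was 1.24 without A2780 replicate 2, the library without reads, and 1.93 without CP70 replicate 1, and in these settings ITGB4 did not meet the stricter rule. PEA1 libraries had 137, 99 and 98 reads and PEA2 libraries 572, 999 and 703. These were 6.64, 6.15 and 5.82 against 8.25, 8.17 and 8.33 log2 CPM, with no overlap and a log2FC of 2.05 (SE 0.40, FDR = 0.000200). PEO1 libraries stood at 7.70, 7.90 and 8.09 and PEO4 libraries at 8.58, 8.55 and 8.76. Although these did not overlap either, the log2FC of 0.73 missed the threshold (SE 0.40, limma FDR = 0.160), in a fit whose spread for this gene is set in part by A2780, at an SD of 1.39 where the other lines had 0.08 to 0.41. The FDR in the PEO pair was 0.00168 with A2780 replicate 2 left out, 2.35e-05 with the pair fitted alone, 2.75e-05 with voom weights and 0.0178 with 2 reads added. GALK1 overlaps ITGB4 on the opposite strand and had 30 to 57 reads in the A2780 libraries, in which ITGB4 had 0 to 2, and the strand setting of the counting is not given in the sources used here.

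ITGB1, the common beta subunit (chromosome 10, 33176201 to 33294720, minus strand), was abundant in each line and changed little within pairs. Its reads per library ran from 1406 to 9761. The line means were 9.32 ± 0.04 in A2780 and 9.58 ± 0.07 in CP70, 11.72 ± 0.13 in PEA1 and 11.54 ± 0.08 in PEA2, and 9.24 ± 0.14 in PEO1 and 9.55 ± 0.04 in PEO4 (log2 CPM, SD, n = 3). Both PEA lines were thus about 2 log2 units above the other 4, and PEA1 and PEA2 overlapped, with a log2FC of -0.19 (SE 0.09, limma FDR = 0.0859) that passed after quantile normalization, with voom weights and without PEA1 replicate 1 (FDR = 0.0263). The libraries stood at 11.57, 11.81 and 11.79 in PEA1 and 11.62, 11.46 and 11.53 in PEA2. The rises of 0.26 in CP70 (FDR = 0.0318) and 0.31 in PEO4 (FDR = 0.0105) were small. The first was lost without A2780 replicate 1 or 3 or CP70 replicate 2 or 3 (FDR up to 0.101), and the second without PEO1 replicate 3 (FDR = 0.0594). The processed pseudogene ITGB1P1 (chromosome 19, 14732446 to 14733054), which shares sequence with ITGB1, is counted separately in the table and had the same order of pairs, with line means of 6.94 and 7.09, 9.03 and 8.66, and 6.80 and 7.20, so the division of reads between the gene and its copy is uncertain.

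ITGA5, the alpha subunit of the fibronectin receptor (chromosome 12, 54789045 to 54813050, minus strand), had the narrowest range of the 10, with line means that spanned 2.19. PEA1 libraries had 5.70, 5.25 and 5.40 log2 CPM and PEA2 libraries 6.29, 6.36 and 6.47. PEA2 was the higher line in every library, with a log2FC of 0.92 (SE 0.14, limma FDR = 1.34e-05). The other pairs gave no call, with log2FC of 0.26 in CP70 (FDR = 0.157) and -0.14 in PEO4 (FDR = 0.467), and the PEO libraries overlapped. Both PEO lines were the lowest, at 4.32 ± 0.10 in PEO1 and 4.18 ± 0.27 in PEO4.

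ITGAV, the alpha subunit of the RGD receptors (chromosome 2, 187454737 to 187545628, plus strand), moved in opposite directions in CP70 and PEA2. A2780 libraries stood at 9.04, 9.18 and 9.02 and CP70 libraries at 10.25, 10.30 and 10.31 log2 CPM. PEA1 libraries stood at 10.01, 10.02 and 10.01 and PEA2 libraries at 8.40, 8.74 and 8.42. Neither pair overlapped, and ITGAV was 2.31-fold higher in CP70 (log2FC SE 0.09, limma FDR = 4.01e-10) and 2.82-fold lower in PEA2 (log2FC SE 0.09, FDR = 1.29e-11). The PEO lines were the lowest, at 7.16 ± 0.06 and 7.40 ± 0.03, and their difference of 0.23 (FDR = 0.0343) was lost without PEO1 replicate 1 or 2 or without PEO4 replicate 1, 2 or 3 (FDR up to 0.119).

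ITGB3, which joins ITGAV in a receptor for vitronectin and fibrinogen (chromosome 17, 45331193 to 45391109, plus strand), was read in quantity in a single line. PEA1 libraries had 245, 243 and 289 reads and PEA2 libraries 5, 6 and 5. The 12 libraries of the other 4 lines had 0 or 1 read each, and no fold is given between them. PEA1 thus stood at 7.48, 7.44 and 7.38 log2 CPM and PEA2 at 1.55, 0.90 and 1.33. The log2FC was -6.17 (SE 0.61, limma FDR = 3.25e-08), the largest decrease of the set, and the depth-scaled ratio of summed reads in PEA2 to those in PEA1 was 0.0123 (exact 95% counting interval 0.00702 to 0.0202). A readthrough gene of the annotation overlaps ITGB3 on the same strand and was not analysed here.

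ITGB5, another partner of ITGAV in vitronectin binding (chromosome 3, 124480795 to 124620265, minus strand), was highest in the PEO lines, at 8.26 ± 0.19 in PEO1 and 7.89 ± 0.24 in PEO4. CP70 libraries stood at 5.98, 6.08 and 6.11 log2 CPM, each above the A2780 libraries at 4.86, 4.34 and 4.71, a log2FC of 1.42 (SE 0.15, limma FDR = 1.25e-07). PEA1 and PEA2 had the same mean of 6.84 and overlapped, with a log2FC of 0.00 (SE 0.15, FDR = 0.992). PEO4 was 0.37 lower than PEO1 with overlapping libraries (FDR = 0.0519), and this p passed in 10 of the 25 alternatives, with the lowest log2FC at -0.50 when PEO4 replicate 3 was left out (FDR = 0.0182).

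ITGB8, the beta subunit of the TGF-beta-activating receptor (chromosome 7, 20370325 to 20455377, plus strand), had the widest range of all, with line means that spanned 12.71. A2780 libraries had 0, 1 and 1 reads and CP70 libraries 9, 4 and 4. The depth-scaled ratio of summed reads was 5.83 (exact 95% counting interval 1.38 to 52.0), and the log2FC of 1.92 (SE 0.34, limma FDR = 0.000105) was 0.93 with 2 reads added, 1.29 after quantile normalization and 1.30 without A2780 replicate 1. Without A2780 replicate 2 or 3 or CP70 replicate 2 it passed the stricter rule, at 2.03, 2.43 and 2.04. PEA1 libraries had 526, 470 and 881 reads and PEA2 libraries 3910, 7829 and 5052, or 8.58, 8.39 and 8.99 against 11.03, 11.14 and 11.17 log2 CPM. The PEA2 libraries were above the PEA1 libraries without overlap, with a log2FC of 2.46 (SE 0.34, FDR = 2.91e-06), and PEA2 held the highest level of ITGB8 of the 6 lines. In the PEO pair, libraries at 7.95, 8.02 and 8.34 in PEO1 overlapped those at 8.31, 8.45 and 8.25 in PEO4, with a log2FC of 0.23 (SE 0.34, FDR = 0.620).

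**Figure D2:**
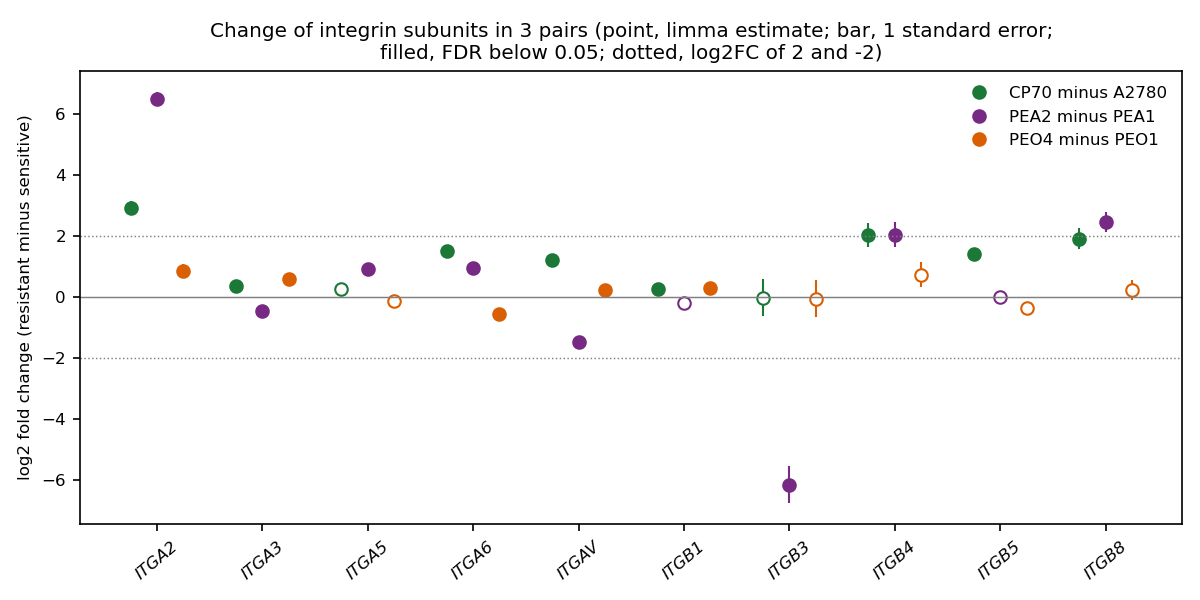
Log2FC of each integrin subunit, resistant minus sensitive line, in the A2780, PEA and PEO pairs, with bars of 1 SE. Filled points passed at an FDR below 0.05 and dotted lines mark a log2FC of 2 in either direction. ITGA2 at 6.52 and ITGB3 at -6.17, both in the PEA pair, lie farthest from 0, while in the PEO pair the points lie between -0.55 and 0.86.

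Levels of different genes were compared per length, as CPM per kilobase of the MANE transcript. Among the 5 alpha subunits, ITGAV held 81.9% of the summed level in A2780 and 86.2% in CP70, but 27.3% in PEA1, 12.0% in PEA2, 7.59% in PEO1 and 6.19% in PEO4. ITGA3 held 0.934% and 0.561% in A2780 and CP70 and was the largest share in the patient lines, at 66.5% in PEA1, 59.2% in PEA2, 80.6% in PEO1 and 84.8% in PEO4. These leading places were the same when the length of all exons of the gene was used. ITGA2 went from 0.118% in PEA1 to 14.1% in PEA2. Among the beta subunits, ITGB1 held 96.8% in A2780, 93.0% in CP70, 88.9% in PEA1, 71.0% in PEA2, 53.6% in PEO1 and 56.1% in PEO4. The rest of PEA2 was mainly ITGB8, at 22.0% against 4.46% in PEA1, and the rest of the PEO lines was split between ITGB5, at 22.8% and 15.0%, ITGB4, at 13.4% and 18.8%, and ITGB8, at 10.2% and 10.1%. In the PEO lines the leading place depended on the length used, since with all exons ITGB5 led in PEO1 (33.1% against 29.2% for ITGB1) and ITGB4 led in PEO4 (34.9% against 30.6%). ITGB3 reached 2.85% in PEA1. These shares describe transcripts of 1 line each, with no test.

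**Figure D3:**
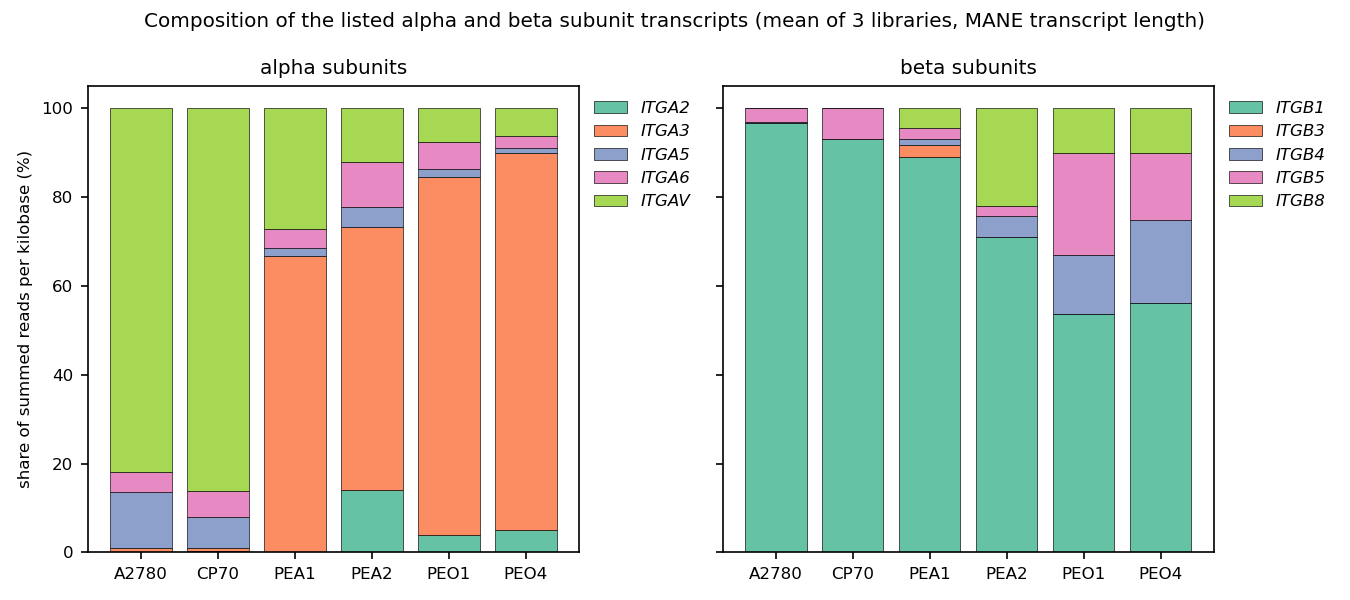
Share of each subunit in the summed level of the 5 alpha subunits and of the 5 beta subunits, in percent of CPM per kilobase of MANE transcript, for the 6 lines. ITGAV fills most of the alpha bar in A2780 and CP70 (81.9% and 86.2%) and ITGA3 most of it in the patient lines (59.2% to 84.8%).

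Each member has 5 pairs of lines next to each other in its order of levels, 50 in all. Of these, 32 differed at an FDR below 0.05 and 18 did not, 3 of the latter being lines in which ITGB3 was at the floor of 3 reads. Over all genes, the share that differed was 39.9% between A2780 and CP70, 61.9% between PEA1 and PEA2 and 41.5% between PEO1 and PEO4. It was 71.9%, 74.3%, 72% and 72.6% between A2780 and PEA1, PEA2, PEO1 and PEO4, and 70.4%, 72.3%, 68.8% and 70.1% between CP70 and the same lines. It was 68.1% and 67.7% between PEA1 and the PEO lines, and 66.9% and 68.1% between PEA2 and the PEO lines. These shares are for fixed lines, whereas the neighbours were picked for each member as lines next to each other in level. The count of 32 of 50 is therefore not comparable with them. The patient lines were close to each other for several members. PEO1 and PEO4 were not shown to differ for ITGA5, ITGB5 or ITGB8, PEA1 and PEA2 were not for ITGB1 or ITGB5, and PEA2 stood next to PEO1 and to PEO4 in ITGB4 without a difference past the threshold. A2780 was the lowest line for ITGA2, ITGA3, ITGA6, ITGB4, ITGB5 and ITGB8.

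Whether a subunit changed alike in the pairs was tested on the difference of the log2FC itself. The A2780 and PEA pairs differed in 8 of 10 subunits (57.5% of all genes did). For A2780 against PEO it was 5 (47.5%), and for PEA against PEO 8 (58.7%). ITGA2, ITGA6 and ITGAV differed in all 3 tests. The lowest FDR was that of ITGAV, 2.70 lower in the PEA than in the A2780 pair (limma FDR = 4.89e-13), and the largest differences were those of ITGB3, at -6.14 and 6.11. ITGB4 was not shown to differ in any, with a difference of 0.01 between the A2780 and PEA pairs (FDR = 0.992) and of -1.31 between the PEA and PEO pairs (FDR = 0.0548). The first of these values rests on 0 to 2 reads of ITGB4 in A2780 and 5 to 11 in CP70. With 2 reads added, all 10 subunits, ITGB4 among them, differed between the A2780 and PEA pairs, so a like change in these pairs is not shown. A single model of resistance over the 3 pairs, with the pair as a term, called 4 subunits, all higher, where 24.1% of all genes passed and 12.5% were higher. These were ITGA2 at a log2FC of 3.43 (SE 0.58, limma FDR = 0.000657), ITGB4 at 1.61 (FDR = 0.00104), ITGB8 at 1.54 (FDR = 0.00233) and ITGA6 at 0.65 (FDR = 0.0465), the last with a fall in the PEO pair. The call of ITGA6 was lost in 17 of 25 alternatives, among them leaving out any single library of A2780, CP70, PEA1 or PEA2. ITGA2, ITGB4 and ITGB8 were called in 24 each, but all 24 take libraries as the replicates, although each pair holds a single resistant line. The remaining alternative took the 3 differences between lines as the replicates. There limma called 0 subunits (lowest FDR 0.980), and 3 had an unadjusted p under 0.05, a share not given for all genes. The 24 calls thus describe these lines and not resistant lines in general.

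Over the 6 line means, ITGA3, ITGB4 and ITGB8 followed each other (Pearson r = 0.970 for ITGA3 with ITGB8 and 0.967 for ITGB4 with ITGA3 and with ITGB8), as did ITGB4 and ITGB5 (r = 0.901). ITGB1 and ITGB3 also did (r = 0.894), although ITGB3 had 0 or 1 read per library in 4 of the 6 lines. ITGAV went against ITGB5 (r = -0.660), ITGA2 (r = -0.650) and ITGB4 (r = -0.624). These values describe 6 points, of which A2780 and CP70 are related lines, as are the lines of the other pairs. Among 10597 genes whose line means spanned at least 1 on the log2 scale, those most like ITGB8 were MET, the receptor of hepatocyte growth factor (r = 0.997), AHR, the aryl hydrocarbon receptor (r = 0.997), and NT5E, the ectonucleotidase CD73 (r = 0.996). HAVCR1, a cell-surface receptor of injured kidney tubules (r = 0.997), TMEM69 (r = 0.996) and RPL26P30 (r = 0.994) were most like ITGB3, and DERL1, a protein of endoplasmic reticulum quality control (r = 0.998), UBTD1 (r = 0.996) and P4HTM (r = 0.996) most like ITGB4. These genes were picked for the highest r among 10597 over 6 points, so values near 1 follow from the choice and do not show a shared regulation. For ITGB3 they rest mainly on its high level in PEA1.

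Of 16 other integrin subunits, 9 are in the table. CP70 differed from A2780 in 2 of them, both higher, PEA2 from PEA1 in 7, with 2 higher and 5 lower, and PEO4 from PEO1 in 4, with 3 higher and 1 lower, where 39.9%, 61.9% and 41.5% of all genes passed. Some of these calls rest on few reads. ITGB2 had 0 reads in A2780 and 1 to 2 in CP70, both at the floor, and 3 to 5 in PEA1 against 8 to 22 in PEA2. ITGA7 had 3 to 4 reads in PEA1 and 0 to 1 in PEA2. ITGB6, a further partner of ITGAV that activates latent TGF-beta, resembled ITGB8 in being nearly unread in A2780 and CP70, at 0 to 2 reads, but its order among patient lines was another. It had 92 to 100 reads per library in PEA1, and its means were 5.24 ± 0.18 in PEA2, 6.50 ± 0.12 in PEO1 and 8.31 ± 0.10 in PEO4, with a log2FC of 1.80 in the PEO pair (SE 0.40, limma FDR = 0.00105). ITGA1, the other broadly known collagen-binding partner of ITGB1, had line means of 5.61 in PEA1, 3.47 in PEA2, 1.70 in PEO1 and 4.19 in PEO4, and 0 reads in A2780 against 2 to 6 in CP70. It fell by 2.14 in PEA2 and rose by 2.49 in PEO4. ITGA4, a subunit of leukocytes that binds VCAM1, fell from 63 to 69 reads in PEA1 to 0 to 7 in PEA2, and its partner ITGB7 rose from 0 to 4 reads to 68 to 135. ITGA11, which binds fibrillar collagen, had a mean of 5.55 in PEA1 and 1.67 in PEA2, a log2FC of -3.88. The leukocyte subunit ITGB2 was at 4.32 in PEO1 and 5.92 in PEO4 (log2FC 1.60). ITGAE had 11 to 82 reads per library, ITGA9 stood above 0 on the log2 scale in PEO1 (3.91) and PEO4 (3.33) alone, and ITGA7 was highest in these lines, at 3.06 and 3.66.

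The ligands of these receptors changed in both directions. Their counts stand against 22.2% of all genes higher and 17.7% lower in CP70, 32.5% and 29.4% in PEA2, and 19.6% and 21.9% in PEO4. Of 10 laminin chains, 5 rose and 2 fell in CP70, 6 rose and 3 fell in PEA2, and 3 rose and 1 fell in PEO4. LAMA1, the alpha chain of embryonic laminin, fell from 237 to 440 reads in A2780 to 0 to 4 in CP70, and LAMA4, the alpha chain of vessel and mesenchymal laminins, rose from 0 reads in PEA1 to 53 to 144 in PEA2, and from 38 to 82 reads in PEO1 to 509 to 667 in PEO4. Of 10 RGD and other glycoprotein ligands, 4 rose and 2 fell in CP70, 4 rose and 5 fell in PEA2, and 2 rose and 6 fell in PEO4. POSTN, the matricellular protein periostin, rose in CP70 from 0 to 2 reads to 1891 to 2720, SPP1, or osteopontin, a ligand of ITGAV with ITGB3, fell from 563 to 711 reads to 2 to 15 in PEA2, and NPNT fell by 3.95 in PEO4. THBS1, which the paper reports as lower in the resistant lines, was among the falls in every pair. Its log2FC was -4.78 in CP70, -3.08 in PEA2 and -2.23 in PEO4. FN1, which encodes fibronectin, had a log2FC of 1.39 in CP70, 4.21 in PEA2 and -1.36 in PEO4. Of 8 collagen chains, 3 rose and 1 fell in CP70, 1 rose and 3 fell in PEA2, and 4 rose and 3 fell in PEO4. COL4A1, of basement membranes, rose from 0 reads to 77 to 108 in CP70, the fibrillar chain COL1A1 fell from 513 to 649 reads to 7 to 11 in PEA2, and COL3A1 rose from 0 reads to 156 to 193 in PEO4. Among 4 latent TGF-beta genes, 2 rose in CP70, 2 rose in PEA2, and in PEO4 1 rose and 1 fell. LTBP1, which holds latent TGF-beta in the matrix, rose by 2.36 in PEA2 and fell by 2.03 in PEO4.

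Genes inside the cell and in the membrane beside the receptors also went both ways, and their counts stand against the same shares of all genes (22.2% higher and 17.7% lower in CP70, 32.5% and 29.4% in PEA2, 19.6% and 21.9% in PEO4). Of 28 talins, kindlins and adhesion adaptors, 14 rose and 6 fell in CP70, 9 rose and 12 fell in PEA2, and 5 rose and 14 fell in PEO4, with median log2FC of 0.29, -0.04 and -0.31. KANK1, which binds talin, rose from 0 to 2 reads to 455 to 767 in CP70, and TNS4, a tensin that binds the tail of ITGB1, rose from 0 to 1 reads to 206 to 344 in PEA2. Of 7 inhibitors and trafficking genes, 4 rose and 1 fell in CP70, 4 rose and 1 fell in PEA2, and 2 rose and 1 fell in PEO4, and RAB25, which recycles integrins in epithelial cells, had 0 reads in each PEA1 library and 80 to 151 in PEA2. Among the 6 tetraspanins and CD47, which sit beside integrins in the membrane, 1 rose and 1 fell in CP70, 4 rose in PEA2 and 1 fell in PEO4, and CD9 rose by 2.57 in PEA2. Both hemidesmosome partners of ITGB4 in the table, PLEC and DST, rose in CP70 and in PEO4, and 1 of the 2 rose in PEA2. Of the 9 epithelial markers, 3 rose in CP70, 7 rose in PEA2, and 2 rose and 1 fell in PEO4, KRT18 in CP70 from 3 reads in each A2780 library to 242 to 407, and KRT7 falling by 2.44 in PEO4. Of 2 leukocyte markers, 1 fell in CP70, 2 rose in PEA2 and 1 fell in PEO4, LCP1 falling in CP70 by 2.44. Both falls were those of LCP1 and rest on few reads, with 9 to 10 in A2780 and 1 to 5 in CP70, and 2 to 8 in PEO1 and 0 to 6 in PEO4. The endothelial marker rose in PEA2 alone of the 3 pairs. Of 4 fibroblast markers, 3 rose and 1 fell in CP70, 1 rose and 1 fell in PEA2 and 1 rose in PEO4, LUM in CP70 from 0 to 6 reads to 41 to 72. The fall in PEA2 was that of THY1, at 0 to 2 reads in PEA1 and 0 in PEA2, so both lines were at the floor. The rises in PEA2 and PEO4 were those of ACTA2, also with few reads. It had 1 to 4 in PEA1 and 6 to 18 in PEA2, and 2 to 8 in PEO1 and 4 to 10 in PEO4.

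**Figure D4:**
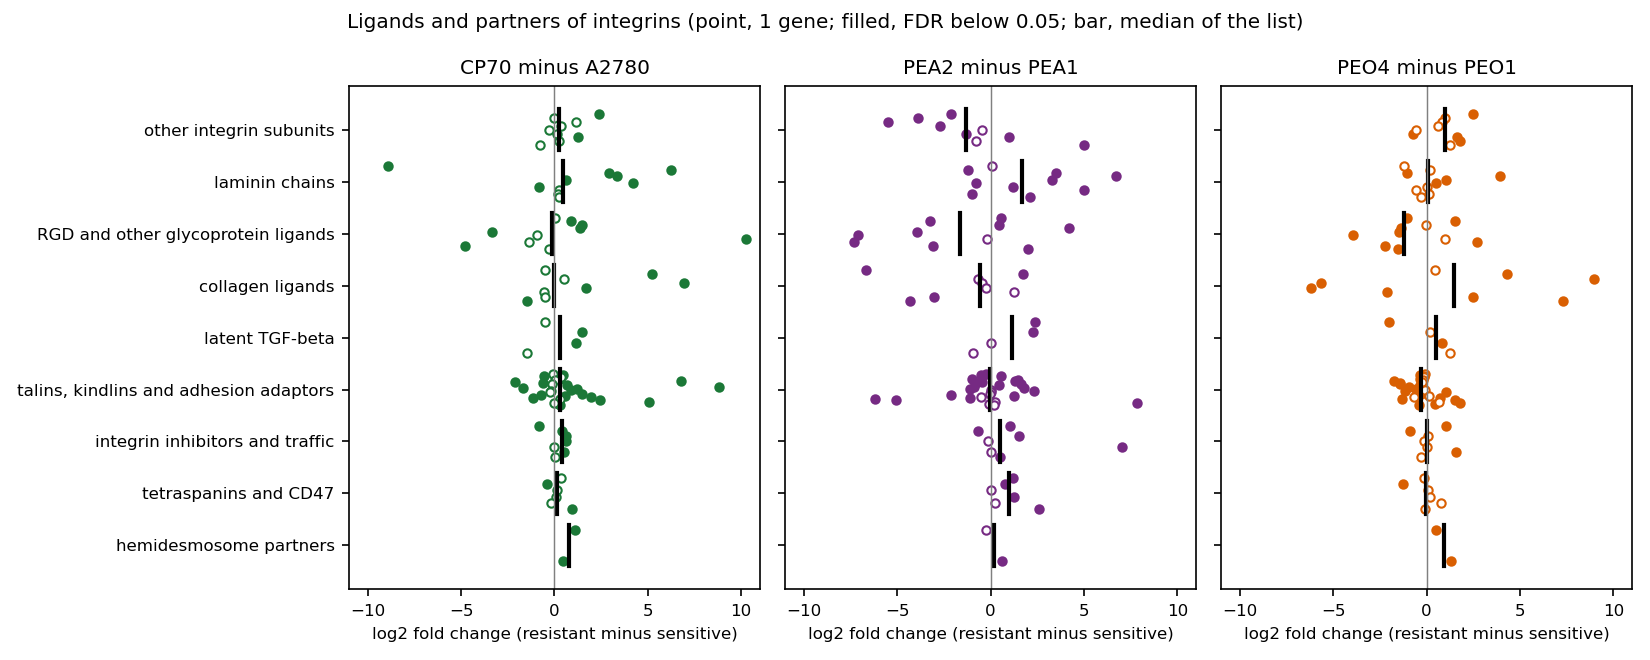
Log2FC, resistant minus sensitive line, of the genes of each partner list in the 3 pairs, 1 point per gene, filled where the FDR was below 0.05, with a bar at the list median. The points of the ligand lists spread to both sides of 0 in every pair, while the adaptors in PEO4 lie within 2 log2 units where they passed.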

How the data were processed

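RNA-seq libraries were prepared from RNA depleted of ribosomal RNA with a directional kit. Submitters' processing notes name Bowtie2, featureCounts, limma and hg19, without versions or the strand setting. The deposited values are log2 CPM with 0.5 reads added, made by the authors from counts per gene, for 12853 genes. Solving them for the reads gave whole numbers for 100% of values (tolerance 0.01), and every value column was used. Gene identifiers were matched to GENCODE on GRCh37 for 12642 of them, for positions and lengths. The fit was limma 3.58.1 (R 4.3.3, eBayes with trend) on the deposited log2 values, over 18 libraries with 1 mean per line, and FDR is Benjamini-Hochberg over all 12853 genes. Ratios of summed reads, scaled to the summed library size that the authors' values imply for each line, carry exact conditional counting intervals at the 95% level. No such ratio is given where both lines had at most 3 reads. The code was tested on simulated data. Alternatives were voom weights on the recovered reads, quantile normalization, 2 reads added, a filter on a mean log2 value above 0, no trend, the pair fitted alone, a replicate block and leaving out each library. All 10 subunits were named. Of each other list, the gene with the largest absolute log2FC among those with an FDR below 0.05 and an absolute log2FC above 2 was named per pair, with other integrin subunits above 0 in a line, and the 3 genes most like each of the 3 members with the widest range. The marker CDH1, and ITGB1P1, GALK1, PLEC, DST, THBS1 and FN1 were named after their values were seen. The members and lists were chosen with earlier results of these data known.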

Additional observations from a re-analysis of the deposited data

Results flagged for a closer look

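The change between the resistant and the sensitive line differed between pairs for 9 of the 10 subunits in at least 1 of 3 tests, by limma's test of the difference with FDR over all 12853 genes. Of all genes, 57.5% differed between the A2780 and PEA pairs, 47.5% between A2780 and PEO, and 58.7% between PEA and PEO. The share of all genes that differed in at least 1 test was not computed, so the 9 of 10 is a description only. Differences are log2FC of the second pair minus log2FC of the first. From the A2780 to the PEA pair, ITGB3 differed by -6.14 (FDR = 4.49e-06), ITGAV by -2.70 (FDR = 4.89e-13), ITGB5 by -1.42 (FDR = 8.67e-06) and ITGA3 by -0.84 (FDR = 1.64e-05). ITGA6 differed by -0.56 (FDR = 0.0116), ITGB1 by -0.44 (FDR = 0.00664), ITGA5 by 0.66 (FDR = 0.00878) and ITGA2 by 3.59 (FDR = 9.78e-09). From the A2780 to the PEO pair, ITGA6 differed by -2.07 (FDR = 9.42e-09), ITGA2 by -2.06 (FDR = 2.09e-05), ITGB5 by -1.79 (FDR = 6.69e-07), ITGB8 by -1.69 (FDR = 0.00639) and ITGAV by -0.97 (FDR = 1.57e-06). From the PEA to the PEO pair, ITGA2 differed by -5.66 (FDR = 1.86e-11), ITGB8 by -2.23 (FDR = 0.000497), ITGA6 by -1.52 (FDR = 4.84e-07) and ITGA5 by -1.06 (FDR = 0.000153). ITGB1 differed by 0.50 (FDR = 0.00291), ITGA3 by 1.07 (FDR = 8.14e-07), ITGAV by 1.73 (FDR = 4.38e-10) and ITGB3 by 6.11 (FDR = 4.88e-06). The differences of ITGB3 are set against pairs with 0 or 1 read per library, and those of ITGA2 and ITGB8 with the A2780 pair against lines with few reads, so their sizes depend on the 0.5 reads added. Each pair of tests shares 1 pair of lines.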

How the results depend on the processing

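Of the single subunits, 659 values over the alternatives kept their direction and call, 18 gained a call, 15 lost it and 7 turned direction, all 7 for ITGB5 in the PEA pair, whose log2FC of 0.00 became -0.13 after quantile normalization, -0.00287 with 2 reads added and -0.0125 with voom weights. It ran from -0.0870 to 0.119 when a library was left out, below 0 without PEA1 replicate 2 or 3 or PEA2 replicate 1 or 3. The count of subunits past both thresholds in the A2780 pair, 2, was 0 after quantile normalization, 1 with 2 reads added, 6 with an absolute log2FC above 1, and 1 to 3 when a library was left out, with 1 without CP70 replicate 1. The 4 subunits of the model over all pairs became 0 with the 3 line differences as replicates, 3 with the replicate block, quantile normalization or no trend, 5 with voom weights, and 3 to 5 when a library was left out. With libraries left out, the counts past the FDR were 7 to 8, 8 to 9 and 4 to 7 in the A2780, PEA and PEO pairs, and past both thresholds 3 to 4 for PEA2 and 0 for PEO4. With voom weights the counts past the FDR were 7, 9 and 7. The shares of all genes called under the alternatives are not given. Quantile normalization moved the median log2FC of all genes in the PEA pair from 0.01 to -0.10. The filter removed ITGB3. Replicate numbers did not pair the libraries (mean correlation of same-numbered deviations 0.0942, -0.0307 and 0.0167, and not every library correlated best with its own number), and with the replicate block the counts past the FDR were 8, 8 and 6. Depth limits ITGA2, ITGB3, ITGB4 and ITGB8 in A2780, where 3 reads or fewer were counted per library.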
